A study of Mus musculus with 12 samples.

Results

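The DNA repair and checkpoint genes described here are 48 named mouse genes, taken by symbol from the 54532 genes listed for each library. They cover homologous recombination (12 genes), end resection and DNA helicases (7), the Fanconi anaemia pathway (8), mismatch and base excision repair (7), end joining (4), and the checkpoint kinases with their partners (10). All 48 were listed, and 47 had a mean of at least 1 FPKM (sequenced fragments scaled to gene length and library depth) over the 12 libraries and were among the 11550 genes tested. The exception was Rad51c, a gene of homologous recombination, with a mean of 0.853 FPKM.

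RNA was sequenced from mouse primary CD8+ T cells in 4 groups of 3 libraries. All cells were activated in culture with antibodies to CD3 and CD28 and treated with an siRNA, either a non-targeting control (siNTC) or one against Creb1 (siCreb1), so the controls were exposed to an siRNA too. Each was then kept for 24 h with trans-vaccenic acid (TVA), a trans fatty acid found in ruminant meat and milk, or with the vehicle, DMSO. The labels give the cells as WT (siNTC) or Creb1 KD (siCreb1), and they give neither the age of the mice nor whether the 3 libraries of a group came from separate animals. The p-values below therefore measure the spread between these libraries, which may be partly technical. Creb1 encodes CREB, a transcription factor that is phosphorylated in the cyclic AMP pathway, and the design asks which TVA-dependent changes differ when CREB is depleted. The knockdown was partial: Creb1 was at 10.6 ± 0.359 FPKM (SD, n = 3) in siNTC, 11.8 ± 0.711 in siNTC plus TVA, 1.42 ± 0.314 in siCreb1 and 1.55 ± 0.338 in siCreb1 plus TVA cells. Between 16660234 and 24602484 reads were recovered per library, the fewest in an siNTC plus TVA library and the most in an siCreb1 plus TVA library. Among the 48 genes the shallowest value rested on 40 reads (Rad51c) and the deepest on 5812 (Topbp1).

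A dividing T cell copies its genome under checkpoint control. When a replication fork stalls or a double-strand break forms, the sensor kinases ATR and ATM signal through CHK1 and CHK2 to hold the cell cycle. Breaks are then either joined directly by the Ku and ligase IV machinery or cut back to single strands and repaired from the sister chromatid by BRCA1, BRCA2 and their partners. The Fanconi anaemia proteins unhook crosslinks, while mismatch and base excision repair correct single bases. Many genes for recombination and replication checkpoints are transcribed mainly in S phase through E2F factors, and activated CD8+ T cells are among the fastest dividing mammalian cells.

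The 48 genes spanned a wide range of levels. Trp53, which encodes the p53 tumour suppressor, had the highest mean over all libraries at 53.0 FPKM, followed by Msh6, a mismatch recognition subunit, at 35.5 and Parp1, the main poly(ADP-ribose) polymerase, at 27.0. At the other end, Rad51c was followed by Rad54b, a DNA translocase of recombination, at 1.32 FPKM and Lig4, the end-joining ligase, at 1.33. The median gene was at 4.08 FPKM, and 11 of 48 reached 10 FPKM. FPKM is scaled by the listed gene length, so the order of genes depends on these lengths. Atr, listed at 23629 bases, was at a mean of 2.23 FPKM on 849 to 1292 reads per library. Chek2, at 3001 bases, was at 5.30 FPKM on 214 to 410 reads. Whether the listed lengths match the transcripts of these cells was not tested. None of the 48 was listed at 0 in any library.

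TVA raised 19 of the 47 tested genes in siNTC cells and lowered none (limma, Benjamini-Hochberg adjusted p under 0.05). Over all tested genes 4.49% were called higher and 2.88% lower in this comparison. Without adjustment, 27 of the 47 were higher at a p under 0.05 and 0 were lower. Of all 11550 tested genes, 2417 had such a p in either direction. Limma-voom on the recovered reads called 20 of the 47 higher and 0 lower, beside 658 and 355 of all tested genes. On the log2(FPKM + 1) scale the largest called differences were those of Clspn, Rad51ap1, Bard1, Chek1, Rad54l and Brca1. Over the 19 called genes, the mean FPKM with TVA was between 1.10 (Msh6) and 1.81 (Clspn) times that without it, and by this ratio Brca2, at 1.75, stood above Bard1, Chek1, Rad54l and Brca1. The other 13 called genes were Brca2, Fanci, Fancd2, Exo1, Brip1, Dna2, Polq, Fanca, Blm, Chek2, Rbbp8, Topbp1 and Msh6. The median log2 fold change of the 47 genes was 0.19, beside −0.0056 over all tested genes. With TPM scaling, 402 genes of the whole table were called higher and 154 lower, against 519 and 333 as reported, and 17 of the 47 genes were called, all higher. The log2(FPKM + 1) scale, on which fold changes are given, understates those of low genes. The 19 called genes had lower mean levels (median 3.39 FPKM, 2 of 19 at 10 or more) than the 28 that were not called (median 5.50 FPKM, 9 of 28 at 10 or more). In bulk RNA, a higher value from more cells that express a gene cannot be told apart from more RNA per cell.

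**Figure D1:**
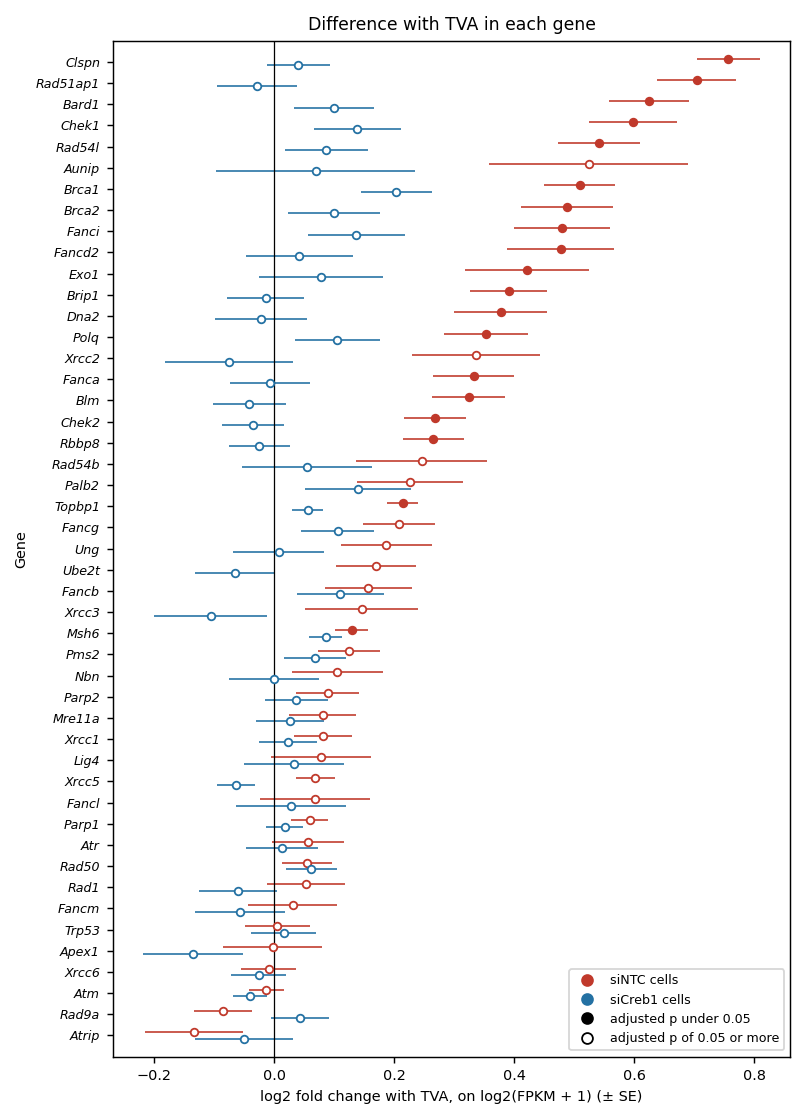
Log2 fold change with TVA for the 47 tested genes (vertical axis, ordered by the value in siNTC cells), on log2(FPKM + 1), with its standard error as a bar; red points are siNTC cells, blue points siCreb1 cells, and filled points have an adjusted p under 0.05. In siNTC cells 19 points are filled, all to the right of 0 and up to 0.76, while in siCreb1 cells no point is filled and the values lie between −0.13 and 0.20.

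In siCreb1 cells TVA changed none of the 47 genes by the same test (0 higher and 0 lower, beside 0.121% and 0.416% of all tested genes). At an unadjusted p under 0.05, 2 of the 47 were higher and 0 lower, beside 1106 of all 11550 tested genes in either direction. Limma-voom called 1 of the 47, Brca1, at a log2 fold change of 0.26 (adjusted p = 0.0356). Over all tested genes limma called 14 higher and 48 lower and limma-voom 64 and 93. The median of the 47 values was 0.03, beside −0.0012 over all tested genes, and the highest single value was 0.20, for Brca1. The interaction, which is the TVA effect in siCreb1 cells minus that in siNTC cells, was tested directly. It was below 0 for 6 genes with an adjusted p under 0.05, namely Rad51ap1, Clspn, Bard1, Chek1, Rad54l and Brip1, and above 0 for none (1.78% and 0.459% of all tested genes). A further 15 genes had a negative interaction at an unadjusted p under 0.05, which makes 21 with the 6, and 0 had a positive one. Of all 11550 tested genes, 1657 had such a p in either direction. Limma-voom called 13 of the 47 negative and 0 positive, beside 320 and 126 of all tested genes. For the other called genes of siNTC cells, a difference between the TVA effects was not shown by the reported test. Clspn, Rad51ap1 and Bard1 kept their called negative interaction under every alternative that could be computed for them (19, 19 and 18). The adjusted p of Chek1, Rad54l and Brip1 was between 0.0412 and 0.0497, and each lost its call under 13 or 14 of 18 alternatives, with adjusted p up to 0.135. The number of called interactions fell to 3 without siNTC replicate 1, 2 or 3, siNTC+TVA replicate 1, siCreb1 replicate 2 or siCreb1+TVA replicate 1. Chek1, Rad54l and Brip1 also lost their call without siCreb1 replicate 1, where Chek2 was newly called (−0.35, adjusted p = 0.0471). Between 1.45% and 2.05% of all tested genes had a called interaction in these fits.

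Without TVA, siCreb1 cells had higher levels than siNTC cells in 18 of the 47 genes and lower levels in none, beside 6.52% higher and 7.21% lower over all tested genes. At an unadjusted p under 0.05, 25 were higher and 0 lower, beside 3248 of all 11550 tested genes in either direction. Limma-voom called 21 of the 47 higher and 0 lower. The largest differences were again in Clspn (0.59 on the log2 scale), Rad51ap1 (0.51), Rad54l (0.47) and Bard1 (0.43), followed by Fanca (0.41). The same siNTC libraries are the reference for this comparison and for TVA in siNTC cells, so the values of both are not independent. The median over the 47 genes was 0.16, beside −0.0011 over all tested genes. Leaving out siNTC replicate 2, siCreb1 replicate 2 or siCreb1 replicate 3 gave 11 called genes in each case. Of all tested genes, 9.91%, 9.13% and 9.24% were called in these fits, in this order. Without siNTC replicate 2 the 11 included Xrcc3, which the reported test did not call. Under TPM scaling, 908 genes of the whole table were called higher and 297 lower, and under limma-voom 1178 and 805, against 753 and 833 as reported. Of the 47 genes, 21 were called higher and 0 lower under each of these.

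With TVA present in both, siCreb1 and siNTC cells differed in 1 of the 47 genes, Rbbp8, which was lower in siCreb1 cells. None was called higher. Over all tested genes 4.64% were higher and 5.51% lower, and the split shifted to 620 higher and 120 lower under TPM and to 595 and 335 under quantile normalization, and to 909 and 623 under limma-voom, against 536 and 636 as reported. At an unadjusted p under 0.05, 2 of the 47 genes were higher and 3 lower, beside 3029 of all 11550 tested genes in either direction. Limma-voom called 1 of the 47 higher (Atm) and 2 lower (Rbbp8 and Rad51ap1). The median log2 fold change was −0.01 both for the 47 genes and for all tested genes. Rad51ap1, at −0.22 (adjusted p = 0.0592), joined Rbbp8 without siCreb1 replicate 1 or 3. Atm, at 0.09 (adjusted p = 0.0621), did so without siNTC+TVA replicate 3, which made 2 called genes in each case. Of all tested genes, 9% were called without siCreb1 replicate 1 or 3 and 6.51% without siNTC+TVA replicate 3.

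**Figure D2:**
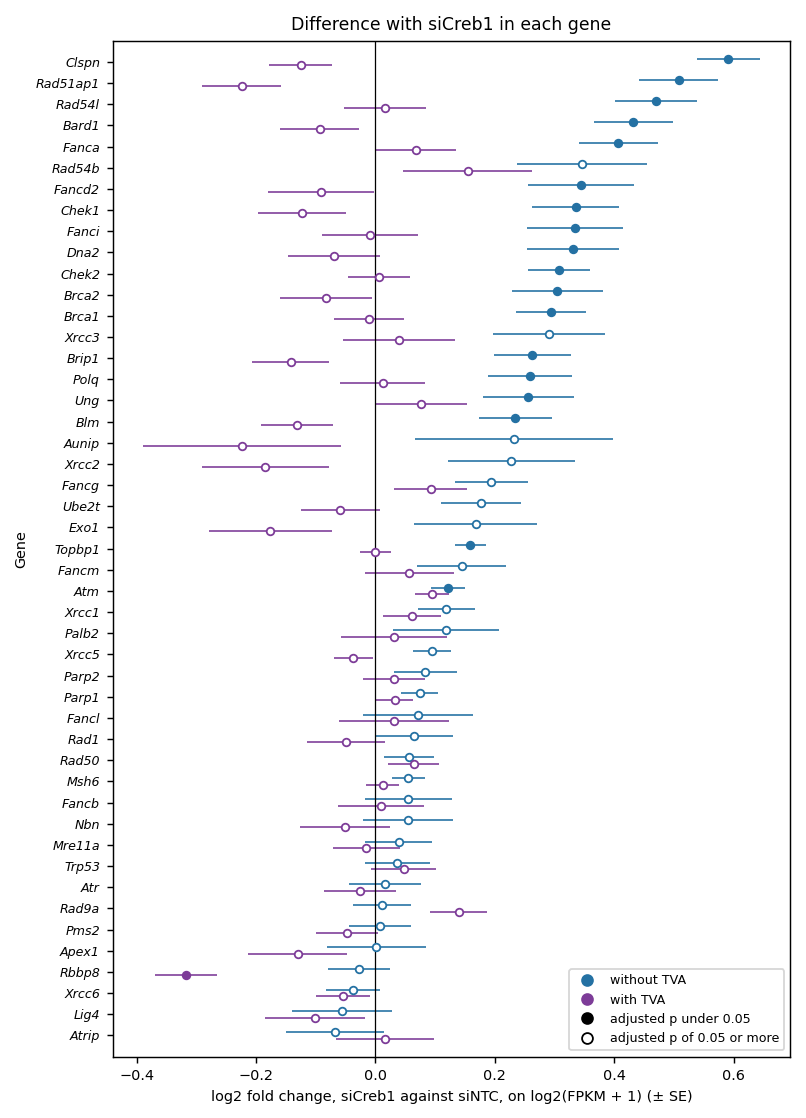
Log2 fold change of siCreb1 against siNTC cells for the 47 tested genes (vertical axis, ordered by the value without TVA), on log2(FPKM + 1), with its standard error as a bar; blue points are without TVA, purple points with TVA, and filled points have an adjusted p under 0.05. Without TVA 18 points are filled, all to the right of 0, and with TVA the filled point is that of Rbbp8, to the left of 0.

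**Figure D3:**
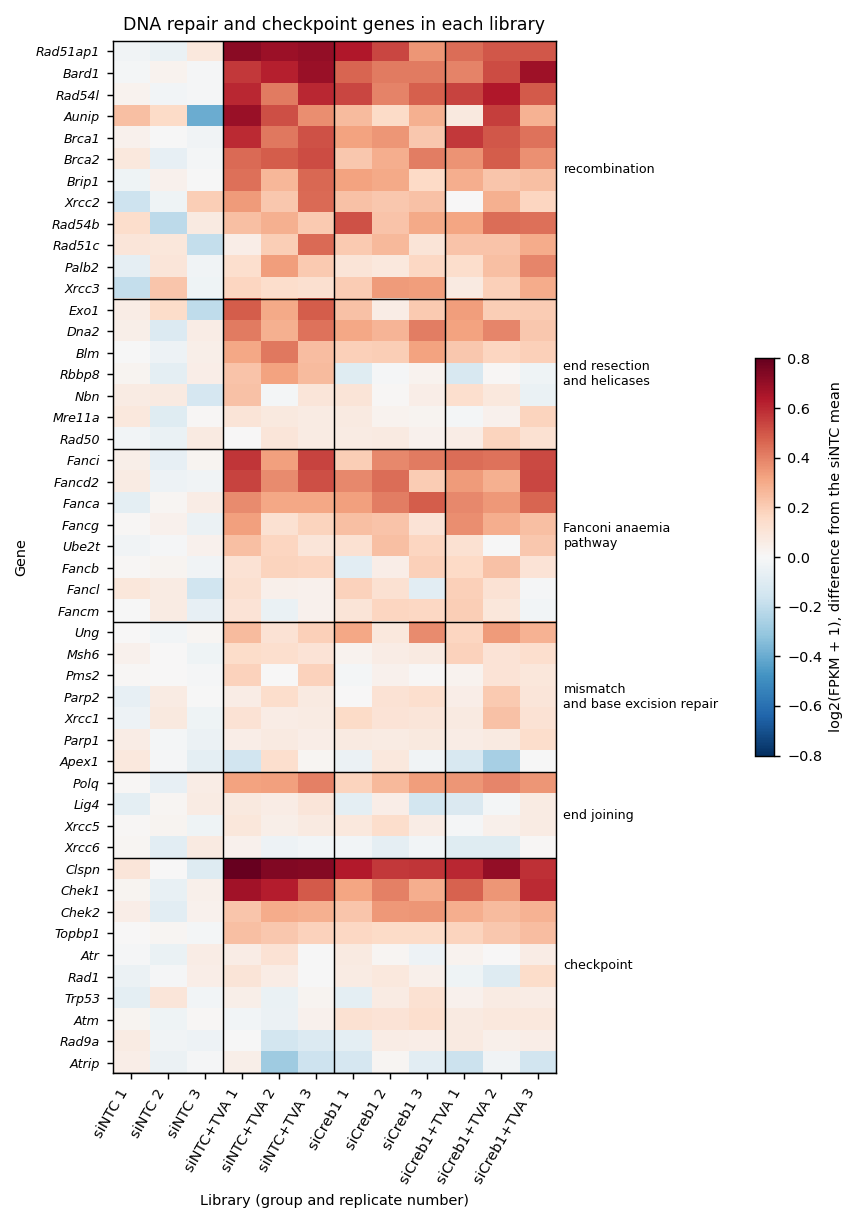
Each row is 1 of the 48 genes, grouped by role and ordered within a role by the mean difference in the siNTC plus TVA libraries, and each column is 1 of the 12 libraries; the colour is log2(FPKM + 1) minus the mean of the 3 siNTC libraries. Clspn, Rad51ap1 and Bard1 are darkest red in siNTC plus TVA cells, and rows such as Trp53, Xrcc6 and Rad50 stay near white in every library.

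Differences of single genes below are log2 fold changes on log2(FPKM + 1), with limma's SE and adjusted p. Counts by role stand beside 4.49% of all tested genes called higher with TVA in siNTC cells and 6.52% with siCreb1 without TVA. A called negative interaction was found in 1.78% of all tested genes. Among the recombination genes, 6 of the 11 tested rose with TVA in siNTC cells and 6 were higher in siCreb1 than in siNTC cells without TVA, and 4 of the 6 genes with a called interaction belong to this role. Their median TVA effect on the log2 scale was 0.49 in siNTC cells and 0.07 in siCreb1 cells. Rad51ap1 (chr6:126923050-126939587, GRCm38), which encodes a protein that promotes strand pairing, was at 3.77, 3.69 and 4.15 FPKM in siNTC, 7.04, 6.82 and 6.92 in siNTC plus TVA, 6.58, 6.03 and 5.22 in siCreb1 and 5.62, 5.85 and 5.88 in siCreb1 plus TVA cells. The siNTC plus TVA libraries were the highest and the siNTC libraries the lowest, without overlap with any other group, and the siCreb1 groups overlapped each other in between. On the log2 scale TVA raised it by 0.70 (SE 0.07, adjusted p = 0.000105) in siNTC cells, against −0.03 (SE 0.07, adjusted p = 0.94) in siCreb1 cells, and the interaction was −0.73 (SE 0.09, adjusted p = 0.00334). Bard1 (chr1:71027498-71103146), the ring-finger partner of BRCA1, was at 3.01, 3.13 and 3.02 FPKM in siNTC, 5.00, 5.23 and 5.53 in siNTC plus TVA, 4.61, 4.40 and 4.40 in siCreb1 and 4.33, 4.82 and 5.48 in siCreb1 plus TVA cells. All siNTC libraries lay below all others, and the siCreb1 plus TVA libraries spread over the range of both siCreb1 and siNTC plus TVA cells. TVA gave 0.62 (SE 0.07, adjusted p = 0.000234) in siNTC and 0.10 (SE 0.07, adjusted p = 0.706) in siCreb1 cells, with an interaction of −0.53 (SE 0.09, adjusted p = 0.0154).

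Rad54l (chr4:116094264-116123690), a translocase that remodels chromatin during strand invasion, was at 2.02, 1.92 and 1.93 FPKM in siNTC, 3.50, 2.94 and 3.50 in siNTC plus TVA, 3.28, 2.90 and 3.12 in siCreb1 and 3.29, 3.61 and 3.15 in siCreb1 plus TVA cells. Here again the siNTC libraries were lowest, while the other 3 groups overlapped. The TVA difference was 0.54 (SE 0.07, adjusted p = 0.000784) in siNTC and 0.09 (SE 0.07, adjusted p = 0.761) in siCreb1 cells, and the interaction −0.45 (adjusted p = 0.0412). Brip1 (chr11:86058138-86201193), a helicase that binds BRCA1, was at 2.85, 3.03 and 2.93 FPKM in siNTC, 4.35, 3.74 and 4.42 in siNTC plus TVA, 3.93, 3.85 and 3.40 in siCreb1 and 3.81, 3.58 and 3.64 in siCreb1 plus TVA cells. No siNTC library reached the level of another group, and the siCreb1 groups overlapped each other and siNTC plus TVA cells. It changed with TVA by 0.39 (SE 0.06, adjusted p = 0.00407) in siNTC and by −0.01 (SE 0.06, adjusted p = 0.974) in siCreb1 cells, with an interaction of −0.40 (adjusted p = 0.0492). Its difference with siCreb1, 0.26 (SE 0.06, adjusted p = 0.0224), was no longer called without siNTC replicate 1 or 3 or siCreb1 replicate 1 or 2, with adjusted p up to 0.0802 over all alternatives.

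Brca1 (chr11:101488764-101551955), the tumour suppressor that channels breaks into recombination, was at 3.44, 3.32 and 3.24 FPKM in siNTC, 5.56, 4.81 and 5.16 in siNTC plus TVA, 4.41, 4.53 and 4.02 in siCreb1 and 5.42, 5.11 and 4.85 in siCreb1 plus TVA cells. The order was siNTC, then siCreb1, then both groups with TVA, which overlapped. TVA gave 0.51 (SE 0.06, adjusted p = 0.000418) in siNTC and 0.20 (SE 0.06, adjusted p = 0.256) in siCreb1 cells, and the interaction did not pass the threshold at −0.31 (adjusted p = 0.103). Brca2 (chr5:150522630-150570329), a tumour suppressor that acts on the resected single strands, was at 1.27, 1.04 and 1.12 FPKM in siNTC, 1.94, 2.00 and 2.08 in siNTC plus TVA, 1.49, 1.62 and 1.85 in siCreb1 and 1.75, 2.00 and 1.77 in siCreb1 plus TVA cells. Its siNTC libraries stood below all others, and siCreb1 plus TVA overlapped both siCreb1 and siNTC plus TVA cells. The values were 0.49 (SE 0.08, adjusted p = 0.0032) for TVA in siNTC cells, 0.10 (adjusted p = 0.755) for TVA in siCreb1 cells and 0.31 (SE 0.08, adjusted p = 0.0253) for siCreb1 without TVA. In the last comparison Brca2 was no longer called without siNTC replicate 2 or 3 or siCreb1 replicate 2 or 3, with adjusted p up to 0.111 over all alternatives.

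The other 5 tested recombination genes did not pass the threshold in any comparison by the reported test. Palb2, which bridges BRCA1 and BRCA2, had 0.23 (adjusted p = 0.173) with TVA in siNTC cells, Xrcc2 had 0.34 (adjusted p = 0.0926), Xrcc3 0.15 (adjusted p = 0.425), Rad54b 0.25 (adjusted p = 0.228) and Aunip, a protein recruited to DNA breaks, 0.52 (adjusted p = 0.0922). Under alternatives, Xrcc2 was called higher with TVA in siNTC cells by limma-voom (0.55, adjusted p = 0.0252) and without siNTC replicate 3 (0.43, adjusted p = 0.0384). With siCreb1 without TVA, limma-voom called Rad54b (0.64, adjusted p = 0.0121) and Xrcc3 (0.38, adjusted p = 0.0172), and Xrcc3 was also called under TPM (adjusted p = 0.0396) and without siNTC replicate 2 (adjusted p = 0.0107). Aunip rested on 48 to 141 reads per library, and its SE was 0.17. Rad51c, a gene of the same role as Xrcc2 and Xrcc3, was at 0.754, 0.747 and 0.440 FPKM in siNTC, 0.704, 0.877 and 1.24 in siNTC plus TVA, 0.895, 0.959 and 0.764 in siCreb1 and 0.922, 0.921 and 1.01 in siCreb1 plus TVA cells. Its siNTC libraries lay below both siCreb1 groups and overlapped siNTC plus TVA, at read counts of 40 to 111 per library, and it was not tested.

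**Figure D4:**
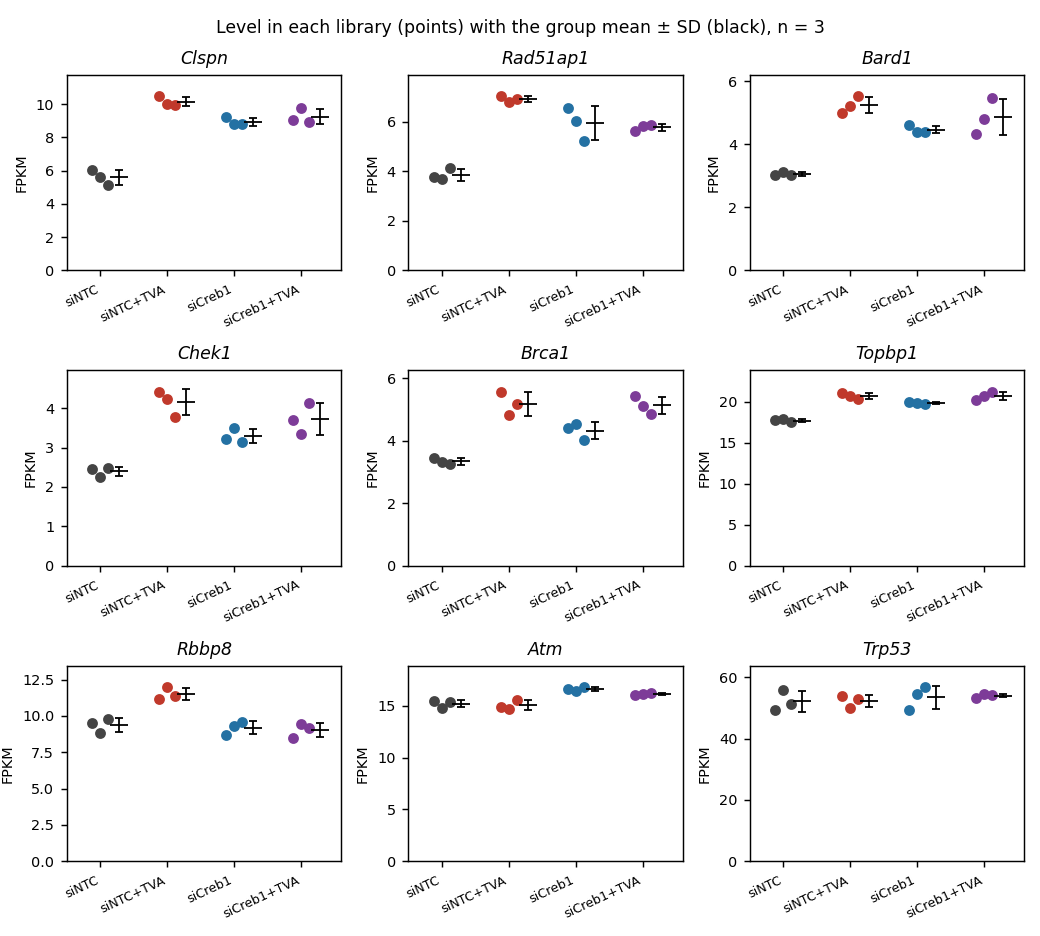
FPKM (vertical axis, from 0) of 9 genes in each library by group, with the group mean ± SD in black (n = 3). The siNTC plus TVA points are the highest of the plot without overlap for Clspn, Rad51ap1 and Rbbp8, both siCreb1 groups are the highest for Atm, and all 4 groups overlap for Trp53.

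Of the 7 end resection and helicase genes, 4 rose with TVA in siNTC cells (Exo1, Dna2, Blm and Rbbp8), and 2 were higher in siCreb1 than siNTC cells without TVA (Dna2 and Blm). Rbbp8, which encodes CtIP, the starter of resection, was at 9.55, 8.86 and 9.78 FPKM in siNTC, 11.2, 11.97 and 11.4 in siNTC plus TVA, 8.70, 9.33 and 9.58 in siCreb1 and 8.50, 9.45 and 9.14 in siCreb1 plus TVA cells. The siNTC plus TVA libraries stood above all 9 others, among which the groups overlapped. TVA gave 0.27 (SE 0.05, adjusted p = 0.0105) in siNTC and −0.02 (SE 0.05, adjusted p = 0.93) in siCreb1 cells, and siCreb1 cells were lower than siNTC cells with TVA, at −0.32 (SE 0.05, adjusted p = 0.00519). Without TVA that difference was −0.03 (SE 0.05, adjusted p = 0.787). The interaction of Rbbp8 was −0.29 (adjusted p = 0.0754). Both calls of Rbbp8 held under all 20 alternatives.

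The long-range nucleases and the Bloom helicase had lower levels. Exo1, a 5′ exonuclease, rose with TVA in siNTC cells from 1.36, 1.51 and 0.968 to 2.17, 1.79 and 2.17 FPKM, without overlap. Its log2 fold change was 0.42 (SE 0.10, adjusted p = 0.0334), and the call was lost without siNTC replicate 1 or 3 or siNTC+TVA replicate 1 or 3, with adjusted p up to 0.142 over all alternatives. Dna2, a nuclease and helicase, rose from 1.74, 1.46 and 1.76 to 2.53, 2.23 and 2.58 FPKM and was at 2.29, 2.20 and 2.52 in siCreb1 cells, and neither group overlapped siNTC. Blm, the helicase lost in Bloom syndrome, was at 2.44, 2.35 and 2.57 FPKM in siNTC, 3.27, 3.62 and 3.09 in siNTC plus TVA and 2.93, 2.95 and 3.30 in siCreb1 cells, again with siNTC lowest. The log2 fold changes with TVA were 0.38 (SE 0.08, adjusted p = 0.0139) for Dna2 and 0.32 (SE 0.06, adjusted p = 0.00903) for Blm, and those with siCreb1 0.33 (SE 0.08, adjusted p = 0.0188) and 0.23 (SE 0.06, adjusted p = 0.029). Dna2 was not called with TVA without siNTC replicate 2 or siNTC+TVA replicate 3 (adjusted p up to 0.0829 over all alternatives). With siCreb1, Dna2 lost its call without siNTC replicate 2 or siCreb1 replicate 3 (up to 0.0690), and Blm without siNTC replicate 1 or 2 or any 1 of the siCreb1 libraries (up to 0.103).

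The 3 subunits of the MRN complex, the break sensor that begins resection, passed no test in any comparison. With TVA in siNTC cells, Mre11a had 0.08 (adjusted p = 0.46), Rad50 0.05 (adjusted p = 0.518) and Nbn 0.11 (adjusted p = 0.483). Rad50 was the highest of the role, at 13.6 ± 0.646 FPKM (SD, n = 3) in siNTC and 14.1 ± 0.476 in siNTC plus TVA cells. Their group ranges overlapped in each of the 4 comparisons of 2 groups.

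In the Fanconi anaemia pathway, 3 of 8 genes rose with TVA in siNTC cells, namely Fancd2, Fanci and Fanca, and these were also the 3 that were higher in siCreb1 cells without TVA. Fancd2 and Fanci encode the paired proteins that are ubiquitinated at a crosslink. Fancd2 was at 1.79, 1.59 and 1.62 FPKM in siNTC, 2.88, 2.46 and 2.81 in siNTC plus TVA, 2.48, 2.63 and 2.07 in siCreb1 and 2.37, 2.25 and 2.87 in siCreb1 plus TVA cells. The siNTC libraries were lowest and the other groups overlapped. Fanci was at 2.16, 1.93 and 2.10 FPKM in siNTC, 3.55, 2.85 and 3.45 in siNTC plus TVA, 2.52, 3.01 and 3.09 in siCreb1 and 3.18, 3.14 and 3.43 in siCreb1 plus TVA cells. Its siNTC libraries were also below all others, and siCreb1 and siCreb1 plus TVA did not overlap, though the difference between them was 0.14 (adjusted p = 0.657). With TVA in siNTC cells the values were 0.48 (SE 0.09, adjusted p = 0.00837) for Fancd2 and 0.48 (SE 0.08, adjusted p = 0.00457) for Fanci, and with siCreb1 0.35 (SE 0.09, adjusted p = 0.0275) and 0.33 (SE 0.08, adjusted p = 0.0214). With siCreb1, Fancd2 lost its call without siNTC replicate 2 or 3 or siCreb1 replicate 1 or 2 (adjusted p up to 0.0965 over all alternatives), and Fanci without siNTC replicate 2 or siCreb1 replicate 2 or 3 (up to 0.0759).

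Fanca, a subunit of the core complex that ubiquitinates that pair, was at 1.41, 1.56 and 1.65 FPKM in siNTC, 2.30, 2.14 and 2.14 in siNTC plus TVA, 2.18, 2.38 and 2.54 in siCreb1 and 2.32, 2.23 and 2.50 in siCreb1 plus TVA cells. The siNTC libraries were lowest, and the other 3 groups overlapped, with the highest mean in siCreb1 cells. Its values were 0.33 (SE 0.07, adjusted p = 0.0128) with TVA and 0.41 (SE 0.07, adjusted p = 0.00343) with siCreb1. Of the remaining core genes, Fancg came closest, at 0.21 (adjusted p = 0.0678) with TVA and 0.19 (adjusted p = 0.0587) with siCreb1. With siCreb1, Fancg was called by limma-voom (adjusted p = 0.0351), with the filter at 5 FPKM (0.0476) and without siNTC+TVA replicate 1 (0.0342). Ube2t, the ubiquitin-conjugating enzyme of the pathway, had 0.17 (adjusted p = 0.175) and 0.18 (adjusted p = 0.111). Fancb, Fancl (the ligase subunit) and Fancm (a translocase) were between 0.03 and 0.16 with TVA, none of them called.

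Among the 7 mismatch and base excision repair genes, 1 was called higher with TVA in siNTC cells, Msh6, and 1 with siCreb1 without TVA, Ung. This is 14.29% in both comparisons, beside 4.49% and 6.52% of all tested genes. A count of 1 in 7 is too small to be set apart from these shares. Msh6 (chr17:87975050-87990883) was at 34.2, 33.5 and 32.7 FPKM in siNTC, 37.1, 36.8 and 36.1 in siNTC plus TVA, 34.2, 34.9 and 35.3 in siCreb1 and 38.2, 36.1 and 36.7 in siCreb1 plus TVA cells. Both TVA groups lay above both groups without TVA, by 0.13 (SE 0.03, adjusted p = 0.0168) in siNTC and 0.09 (SE 0.03, adjusted p = 0.321) in siCreb1 cells. In siNTC cells the mean was 1.10 times that without TVA, and the call was lost without siNTC replicate 3 or siNTC+TVA replicate 1 or 2 (adjusted p up to 0.0832 over all alternatives). Ung, the uracil glycosylase, was at 3.33, 3.27 and 3.38 FPKM in siNTC and 4.36, 3.58 and 4.62 in siCreb1 cells. The groups did not overlap, and the difference of 0.26 (SE 0.08, adjusted p = 0.0499) lost its call under 15 of 19 alternatives, among them leaving out any 1 of the libraries other than siCreb1 replicate 2, with adjusted p up to 0.158.

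The other 5 were not called in any comparison by the reported test. Parp1 was between 25.1 and 28.7 FPKM in all 12 libraries, and its TVA difference in siNTC cells was 0.06 (SE 0.03, adjusted p = 0.313). Apex1, the abasic site endonuclease, had −0.0026 (SE 0.08, adjusted p = 0.991), Parp2 0.09 (adjusted p = 0.378), Xrcc1, the scaffold of single-strand break repair, 0.08 (adjusted p = 0.388), and the mismatch repair endonuclease subunit Pms2 0.12 (adjusted p = 0.202). Pms2 was called with TVA without siNTC+TVA replicate 2 (0.18, adjusted p = 0.0407), and Parp1 with siCreb1 under TPM (0.12, adjusted p = 0.0476).

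Of the 4 end joining genes, 1 was called higher with TVA in siNTC cells and with siCreb1 without TVA, beside 4.49% and 6.52% of all tested genes. This was Polq, the polymerase of the microhomology-mediated pathway, which was at 1.15, 1.04 and 1.22 FPKM in siNTC, 1.68, 1.69 and 1.83 in siNTC plus TVA, 1.42, 1.56 and 1.70 in siCreb1 and 1.73, 1.80 and 1.73 in siCreb1 plus TVA cells. The siNTC libraries were lowest, and siCreb1 plus TVA lay above siCreb1 cells without overlap, at 0.11 (adjusted p = 0.707). It rose with TVA in siNTC cells by 0.35 (SE 0.07, adjusted p = 0.0124) and was higher with siCreb1 by 0.26 (SE 0.07, adjusted p = 0.0341). The first call was lost without siNTC+TVA replicate 3 (adjusted p up to 0.0988 over all alternatives), the second without siNTC replicate 1 or 2, siCreb1 replicate 2 or 3 or siCreb1+TVA replicate 1 or 3 (up to 0.137).

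The classical pathway was not called by the reported test. Xrcc6 (Ku70) was at 14.7, 13.6 and 15.3 FPKM in siNTC, 14.9, 14.1 and 14.3 in siNTC plus TVA, 14.3, 13.8 and 14.3 in siCreb1 and 13.5, 13.5 and 14.6 in siCreb1 plus TVA cells, and all 4 groups overlapped. Xrcc5 (Ku80) was at 14.8 ± 0.317 FPKM (SD, n = 3) in siNTC and 15.6 ± 0.232 in siNTC plus TVA cells. With TVA in siNTC cells Xrcc6 had −0.01 (SE 0.05, adjusted p = 0.939), Xrcc5 0.07 (SE 0.03, adjusted p = 0.253) and Lig4 0.08 (SE 0.08, adjusted p = 0.661). Under TPM, Xrcc5 was called higher with siCreb1 without TVA (0.15, adjusted p = 0.04997).

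Of the 10 checkpoint genes, 4 rose with TVA in siNTC cells (Clspn, Chek1, Chek2 and Topbp1). In siCreb1 cells without TVA, 5 were higher (these genes and Atm). Clspn (chr4:126556935-126593903) encodes claspin, the adaptor through which ATR activates CHK1, and was at 6.06, 5.62 and 5.16 FPKM in siNTC, 10.5, 10.02 and 9.97 in siNTC plus TVA, 9.23, 8.79 and 8.83 in siCreb1 and 9.04, 9.76 and 8.91 in siCreb1 plus TVA cells. The siNTC libraries were lowest, the siNTC plus TVA libraries highest, and the siCreb1 groups overlapped each other only. TVA gave 0.76 (SE 0.05, adjusted p = 1.81e-05) in siNTC and 0.04 (SE 0.05, adjusted p = 0.884) in siCreb1 cells, with an interaction of −0.72 (SE 0.07, adjusted p = 0.00117). The difference with siCreb1 was 0.59 (SE 0.05, adjusted p = 0.000116) without TVA and −0.12 (SE 0.05, adjusted p = 0.161) with TVA.

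Chek1 (chr9:36708482-36727065), which encodes the kinase CHK1, was at 2.44, 2.26 and 2.49 FPKM in siNTC, 4.41, 4.24 and 3.78 in siNTC plus TVA, 3.22, 3.49 and 3.15 in siCreb1 and 3.70, 3.34 and 4.14 in siCreb1 plus TVA cells. Its siNTC libraries lay below all others, and siCreb1 plus TVA overlapped both siCreb1 and siNTC plus TVA cells. The values were 0.60 (SE 0.07, adjusted p = 0.00059) for TVA in siNTC, 0.14 (SE 0.07, adjusted p = 0.611) for TVA in siCreb1 and 0.34 (SE 0.07, adjusted p = 0.0134) for siCreb1 without TVA, with an interaction of −0.46 (adjusted p = 0.0497). Without siCreb1 replicate 2 the siCreb1 call was lost at an adjusted p of 0.0514. Chek2 (chr5:110839979-110874145), the kinase downstream of ATM, was at 4.61, 4.10 and 4.55 FPKM in siNTC, 5.30, 5.65 and 5.60 in siNTC plus TVA, 5.31, 5.89 and 5.92 in siCreb1 and 5.61, 5.46 and 5.55 in siCreb1 plus TVA cells. Only siNTC stood apart, below the other groups. It changed by 0.27 (SE 0.05, adjusted p = 0.0106) with TVA and by 0.31 (SE 0.05, adjusted p = 0.00383) with siCreb1. Topbp1 (chr9:103305215-103350428), the activator of ATR, was at 17.7, 17.9 and 17.5 FPKM in siNTC, 21.1, 20.7 and 20.3 in siNTC plus TVA, 20.004, 19.8 and 19.8 in siCreb1 and 20.2, 20.7 and 21.2 in siCreb1 plus TVA cells. The siNTC libraries were lowest, and the siCreb1 libraries lay below both groups with TVA. Its spread was small, and 0.21 (SE 0.03, adjusted p = 0.000569) with TVA and 0.16 (SE 0.03, adjusted p = 0.00343) with siCreb1 were called at means 1.17 and 1.12 times that of siNTC cells.

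Of the kinases at the head of the pathway, Atm (chr9:53439149-53536740), which responds to double-strand breaks, was at 15.5, 14.8 and 15.3 FPKM in siNTC, 14.9, 14.7 and 15.6 in siNTC plus TVA, 16.6, 16.5 and 16.8 in siCreb1 and 16.1, 16.2 and 16.2 in siCreb1 plus TVA cells. Both siCreb1 groups lay above both siNTC groups, which overlapped each other. Its difference with siCreb1 was 0.12 (SE 0.03, adjusted p = 0.0188) without TVA and 0.09 (SE 0.03, adjusted p = 0.0621) with TVA, at means 1.09 and 1.07 times those of siNTC cells, and the first call was lost without siNTC replicate 2 or siCreb1 replicate 1 or 3 (adjusted p up to 0.0718 over all alternatives). With TVA in siNTC cells Atm had −0.01 (SE 0.03, adjusted p = 0.852). Atr, the replication stress kinase, had 0.06 (SE 0.06, adjusted p = 0.655) and its partner Atrip −0.13 (SE 0.08, adjusted p = 0.397). Rad1 and Rad9a, 2 subunits of the clamp that is loaded at damage, had 0.05 (adjusted p = 0.702) and −0.09 (adjusted p = 0.354). Trp53 was at 49.3, 55.8 and 51.3 FPKM in siNTC, 53.8, 50.1 and 52.9 in siNTC plus TVA, 49.4, 54.5 and 56.7 in siCreb1 and 53.4, 54.5 and 54.3 in siCreb1 plus TVA cells. Its groups overlapped throughout, and its TVA difference in siNTC cells was 0.01 (SE 0.05, adjusted p = 0.971).

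Some of these values may hold reads of a second gene. Of the 48 genes, 12 overlap another gene with a mean of at least 1 FPKM, among them the called genes Blm, Fanca, Fanci, Msh6 and Rad54l, in each case on the opposite strand. The sources used here do not say whether counting used strand. Rad9a shares bases with Ppp1ca, which had a mean of 310.1 FPKM, so the value of Rad9a is uncertain.

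Promoters are shown because the called genes had changes in one direction and CREB binds DNA at a known element. RefSeq promoters (GRCm38.p6, 250 bases before and 50 after each start) matched 40 of the 48 genes with 44 promoters. Motifs of 5 kinds were searched on both strands. The cAMP response element TGACGTCA, to which CREB binds, was in 2 of the 40 genes (5.0%, beside 1.79% of all 32851 promoters and 3.246% of the 10104 promoters of tested genes). Its shorter core TGACG, which the full element contains, was in 19 (47.5%, beside 20.81% and 33.18%). E2F sites, counted as any of TTTGGCGC, TTTCGCGC, TTTCCCGC, TTTGCCGC and TTTCCCGG, were in 9 (22.5%, beside 3.476% and 6.413%). They were in 6 of the 16 matched genes called with TVA in siNTC cells and in 2 of the 23 matched genes tested and not called. The CCAAT box CCAAT was in 23 (57.5%, beside 37.41% and 38.14%) and the CHR element TTTGAA, a cell cycle element, in 2 (5.0%, beside 17.89% and 12.28%). The core TGACG was in 6 of the 16 called and 12 of the 23 not called genes, and CCAAT in 9 and 14. For the full cAMP response element these counts were 1 and 0, and for TTTGAA 2 and 0. A difference between called and not called genes was not tested for any motif. A match describes the letters and is not evidence of binding.

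Below are the stretches with an E2F match in the 6 called genes, with the matched letters in capitals, each 5′ to 3′ along the gene. In Brca2 the second run of capitals is the cAMP response element. Clspn and Msh6 have their match shortly after the start, and it is shown within a stretch of 30 bases.
Clspn (chr4:126556990-126557019, + strand): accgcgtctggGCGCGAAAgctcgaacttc
Bard1 (chr1:71103147-71103222, - strand): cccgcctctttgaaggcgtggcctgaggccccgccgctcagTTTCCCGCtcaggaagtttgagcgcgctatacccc
Brca2 (chr5:150522441-150522620, + strand): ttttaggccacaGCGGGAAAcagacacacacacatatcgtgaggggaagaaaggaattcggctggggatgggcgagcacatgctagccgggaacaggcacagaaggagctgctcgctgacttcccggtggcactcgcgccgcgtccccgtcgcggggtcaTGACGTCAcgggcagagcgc
Chek2 (chr5:110839783-110839882, + strand): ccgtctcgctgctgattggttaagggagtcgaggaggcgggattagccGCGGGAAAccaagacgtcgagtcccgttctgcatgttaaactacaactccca
Topbp1 (chr9:103305107-103305206, + strand): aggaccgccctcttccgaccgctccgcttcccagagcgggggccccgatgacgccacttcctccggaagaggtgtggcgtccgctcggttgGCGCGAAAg
Msh6 (chr17:87975055-87975084, + strand): tcctcccgacTTTCCCGCcagcggcggccg

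For contrast, the 2 genes with an E2F match that were tested and not called with TVA in siNTC cells are Xrcc6 and Fancg. The other gene with a full cAMP response element is Rad51c, which was not tested. Rad51c also has E2F matches outside the stretch shown, TTTCGCGC in the same promoter and TTTCCCGC in another of its promoters. Capitals mark the E2F letters in Xrcc6 and Fancg and the cAMP response element in Rad51c. The stretches of Xrcc6 and Fancg lie before the RefSeq start and in exons of GENCODE vM21.
Xrcc6 (chr15:82016312-82016341, + strand): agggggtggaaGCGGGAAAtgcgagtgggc
Fancg (chr4:43010335-43010364, - strand): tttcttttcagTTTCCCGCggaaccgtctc
Rad51c (chr11:87404533-87404562, - strand): cgccgcgcgtgTGACGTCAcgccactgacc

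The letters TTTCCCGC, or GCGGGAAA on the other strand, recur in Bard1, Brca2, Chek2 and Msh6 and also in Xrcc6, Fancg and Rad51c. TTTCGCGC recurs in Clspn, Topbp1 and Rad51c. The same 8 letters stood before genes that rose with TVA, such as Bard1 (0.62 on the log2 scale), and before Xrcc6 (−0.01), which was not called. Brca2 and Rad51c each had both an E2F match and the cAMP response element. Brca2 had 0.49 with TVA in siNTC cells and 0.31 with siCreb1, and Rad51c was not tested.

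Other genes of the same pathways were taken from a list of 85, of which 80 were tested. With TVA in siNTC cells 11 of the 80 were higher and 0 lower (median effect 0.04), beside 4.49% and 2.88% of all tested genes. In siCreb1 cells limma called 0 and 0 (median 0.02), beside 0.121% and 0.416%. At an unadjusted p under 0.05, 6 of the 80 were higher and 2 lower, beside 1106 of all 11550 tested genes in either direction. With siCreb1 without TVA, 8 were higher and 0 lower, beside 6.52% and 7.21%. With TVA, 4 were higher and 3 lower, which is near the 4.64% and 5.51% of all tested genes. For the interaction, 0 were higher and 3 lower, beside 0.459% and 1.78%. Lig1, the replicative DNA ligase, was at 13.5, 13.3 and 12.1 FPKM in siNTC, 20.9, 21.8 and 21.5 in siNTC plus TVA, 18.4, 18.7 and 17.9 in siCreb1 and 17.9, 20.4 and 20.6 in siCreb1 plus TVA cells. Its siNTC libraries were lowest and siNTC plus TVA highest without overlap. It had 0.68 (SE 0.05, adjusted p = 3.98e-05) with TVA in siNTC cells and an interaction of −0.59 (adjusted p = 0.00334). Neil3, a glycosylase of replicating cells, had 0.58 (adjusted p = 5.61e-05) with TVA in siNTC cells, 0.58 (adjusted p = 8.7e-05) with siCreb1 without TVA and an interaction of −0.51 (adjusted p = 0.00392). Timeless and Tipin, which hold the stalled fork together, rose with TVA in siNTC cells by 0.49 (adjusted p = 0.00122) and 0.47 (adjusted p = 0.00526).

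The few genes of that list that differed between siCreb1 and siNTC cells with TVA, at a share near that of all tested genes, are given by their values. The 3 that were lower in siCreb1 cells were Cdkn1a, Cdc25b and H2afx. Cdkn1a, the cyclin-dependent kinase inhibitor p21, was at 4.17, 3.48 and 3.33 FPKM in siNTC, 4.57, 4.04 and 4.08 in siNTC plus TVA, 3.69, 3.65 and 4.02 in siCreb1 and 3.16, 3.03 and 2.55 in siCreb1 plus TVA cells. The siCreb1 plus TVA libraries were below all others. Its difference was −0.42 (SE 0.08, adjusted p = 0.012). Cdc25b, a phosphatase that promotes mitotic entry, had −0.30 (adjusted p = 0.000437). The largest of the 4 that were higher was Tdg, a thymine DNA glycosylase, at 0.28 (adjusted p = 0.0258) with TVA and 0.32 (adjusted p = 0.01) without it.

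Genes of cell cycle progression were also called in most of these comparisons. The 20 such genes (among them Mki67, Pcna, Top2a and the Mcm2 to Mcm7 helicase subunits) were listed with earlier results of these data known. With TVA in siNTC cells 18 were higher, and with siCreb1 without TVA 17, beside 4.49% and 6.52% of all tested genes. With TVA in siCreb1 cells limma called none, beside 0.121% higher and 0.416% lower of all tested genes. At an unadjusted p under 0.05, 5 were higher and 0 lower there, beside 1106 of all 11550 tested genes in either direction. In siCreb1 against siNTC cells with TVA 9 were lower, and 17 had a negative interaction, beside 5.51% and 1.78% of all tested genes. The summed level of the 20 was between 493 and 501 FPKM in the siNTC libraries, 687 and 688 with TVA, 594 and 602 in siCreb1 and 616 and 625 in siCreb1 plus TVA libraries, and none of the 20 was at 0. The library median of their log2 difference from siNTC was between 0.41 and 0.45 in siNTC plus TVA, 0.25 and 0.28 in siCreb1 and 0.27 and 0.32 in siCreb1 plus TVA cells. For the repair genes these medians were between 0.17 and 0.23, 0.14 and 0.17, and 0.16 and 0.21. With TVA present, the library medians of siNTC and siCreb1 cells overlapped for the repair genes and did not for the cell cycle genes. The part of cell cycle activity in the differences of the repair genes was not tested.

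**Figure D5:**
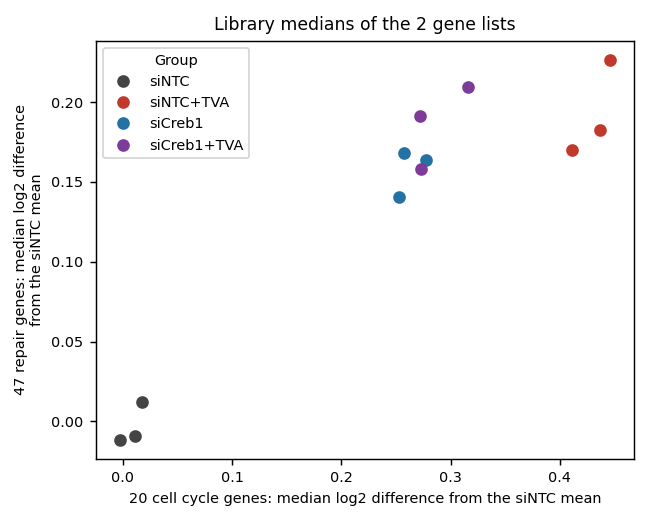
Each point is 1 of the 12 libraries: the horizontal axis is the median log2 difference from the siNTC mean over 20 cell cycle genes, the vertical axis the same median over the 47 tested repair genes, both on log2(FPKM + 1). The 3 siNTC libraries lie near 0 on both axes, both siCreb1 groups lie between 0.25 and 0.32 on the horizontal axis, and the siNTC plus TVA libraries lie above 0.41.

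The label of the cells was checked against markers of other cells. The 6 T cell markers were Cd8a and Cd8b1, of CD8 T cells, and Cd3d, Cd3e, Cd3g and Lck, which CD4 T cells share. They summed to between 2143 and 2176 FPKM in the siNTC and siNTC plus TVA libraries. In the libraries with siCreb1 they summed to between 2034 and 2076. This sum alone does not set CD8 apart from CD4 T cells. The markers kept for CD4 T cells alone summed to at most 4.66. Those of natural killer cells summed to at most 5.24 and of erythroid cells to at most 0.450, with Hbb-bs at 0. The B cell markers (2 of 4 above a mean of 1 FPKM, chiefly Cd79b) summed to between 9.45 and 14.2. The 6 myeloid markers, of which only Lyz2 had a mean above 1 FPKM, summed to between 8.40 and 9.18 in siCreb1 plus TVA cells and between 5.08 and 7.60 in the other groups. The part of these cells in the results was not tested.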

How the data were processed

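The authors deposited FPKM values of 54532 genes per library, with gene lengths and positions. The submitters' notes name GRCm38 and mm10, and the aligner and counter are not given in the sources used here. FPKM times length was a whole multiple of 1 step per library for at least 99.995% of values above 0, which gave back the reads. Of the 48 genes, 45 have the same position in GENCODE vM21.

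Genes whose FPKM averaged at least 1 were fitted on log2(FPKM + 1) with limma 3.58.1 in R 4.3.3 (moderated test with a mean-variance trend), in one fit of 12 libraries with a term per group. P-values were Benjamini-Hochberg adjusted over all tested genes in each of 5 comparisons, with a threshold of 0.05. Replicates differed by 3.81 to 5.92 times counting error. An exact permutation test of 3 against 3 libraries has a smallest p of 0.1 and was not used. The code was tested on simulated data.

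Named by rule were Creb1, up to 10 called genes per comparison and direction, every called interaction, the 3 highest and 3 lowest in level, and up to 5 called genes per comparison of the other repair genes, 1 of which is not reported here. Other members complete the roles. The members and lists were chosen with earlier results of these data known. The alternatives tried were: the pseudocount at 0.1, no filter on level beyond 0, a filter at 5 FPKM, quantile normalization, TPM, the replicate number as a block, limma-voom with recovered reads, fitting the compared libraries alone, and dropping each library. Plots used matplotlib 3.10.9.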

Additional observations from a re-analysis of the deposited data

Results flagged for a closer look

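The TVA effect differed between siNTC and siCreb1 cells, by limma's test of the interaction, in 6 repair and checkpoint genes. The interaction was −0.73 for Rad51ap1 (adjusted p = 0.00334), −0.72 for Clspn (0.00117), −0.53 for Bard1 (0.0154), −0.46 for Chek1 (0.0497), −0.45 for Rad54l (0.0412) and −0.40 for Brip1 (0.0492), on the log2 scale and with the adjusted p in parentheses. Among the 80 other tested repair genes the same held for Lig1 (−0.59, adjusted p = 0.00334), Neil3 (−0.51, 0.00392) and Cdc25b (−0.26, 0.00899). In all 9 the TVA effect was the smaller or of opposite sign in siCreb1 cells: for Cdc25b it was 0.18 in siNTC and −0.08 in siCreb1 cells, and for Lig1 0.68 and 0.09. Without TVA, the 6 repair and checkpoint genes were already called higher in siCreb1 than in siNTC cells, from 0.26 (Brip1) to 0.59 (Clspn). With TVA none of the 6 was called between siCreb1 and siNTC cells by the reported test. Chek1, Rad54l and Brip1 lost their called interaction under 13 or 14 of 18 alternatives. Groups of 3 libraries are too small to look for single outlying samples.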

How the results depend on the processing

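Of 44 calls in single repair and checkpoint genes (a gene in a comparison), 24 were kept under every alternative that could be computed for them, and no gene changed direction. A filter at a mean of 5 FPKM left 21 of the genes tested. It gave 6 calls with TVA in siNTC cells, beside 10.9% of all genes tested there, and 6 with siCreb1 without TVA, beside 19.3%. With siCreb1 with TVA it gave 2, beside 15.6%, and for the interaction 3, beside 3.8%. A fit of only the libraries compared, with fewer samples, gave 12 with TVA in siNTC cells, 9 with siCreb1 without TVA and 2 with TVA. In that fit 3.19%, 7.07% and 7.81% of all tested genes were called, in this order. Testing all genes above 0 gave 10 with siCreb1 without TVA and 3 for the interaction, beside 3.34% and 0.586% of all genes tested there. TPM gave 3 for the interaction (1.32% of all tested genes), and quantile normalization 2 with siCreb1 with TVA (8.05%). Limma-voom on the recovered reads gave 1 with TVA in siCreb1 cells, 3 with siCreb1 with TVA and 13 for the interaction. It called 1.36%, 13.3% and 3.86% of all tested genes, in this order. Some of these fits had smaller numbers of genes or samples. The cause of the changed counts was not tested. Leaving out each library in turn gave 16 to 19 calls with TVA in siNTC cells, beside 4.83% to 6.64% of all tested genes. With TVA in siCreb1 cells it gave 0, beside 0.26% to 0.58%. With siCreb1 it gave 11 to 18 without TVA, beside 8.83% to 13.3%, and 1 to 2 with TVA, beside 5.19% to 10.8%. For the interaction it gave 3 to 5, beside 1.45% to 2.05%.

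Taking replicate numbers as a block, the interaction gave 3 calls (Clspn, Rad51ap1 and Bard1), beside 1.69% of all tested genes. The other counts stayed within 1.5 times the reported ones (19, 0, 15 and 1), beside 5.95%, 0.294%, 12% and 8.42%. Fancg was called only with the block for TVA in siNTC cells (adjusted p = 0.0404), and also with it for siCreb1 without TVA (0.0346). Same-numbered libraries did not deviate together (mean correlation of deviations between −0.044 and 0.027 over the 6 pairs of groups). This does not settle whether they share an animal or culture, which the labels do not give.

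Depth was lowest for Rad51c (40 to 111 reads per library), Aunip (48 to 141) and Rad54b (68 to 237). For these genes, and others near 1 FPKM, the log2(FPKM + 1) scale also compresses a change.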
